A study of Drosophila melanogaster and Drosophila mauritiana and Drosophila simulans with 22 samples.

Results

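The genes described here encode the nuclear subunits of mitochondrial oxidative phosphorylation, read from testes of 4 Drosophila species and of 3 kinds of hybrid males. They were taken by name. A row of the array belonged to the set when its single gene symbol began with ND- (complex I), Sdh (complex II), UQCR (complex III), COX and a digit (complex IV) or ATPsyn (complex V, the ATP synthase), or was Cyt-c1. The COX and ATPsyn symbols that end in L, which name paralogs, were left out. This gave 36 genes among the 6793 genes that the array's rows name by 1 symbol. Complex I had 18 of them, complex II 6, complex III 2, complex IV 2 and complex V 8. The other name in the rule, RFeSP, matched no row. For 5 of the 36, ND-24L, ND-51L2, SdhAL, SdhBL and SdhCL, the symbol also marks a paralog of a subunit. The name therefore goes against calling these 5 standard subunits. By the test below, 4 of these 5 were higher in melanogaster testes than in whole males, as were 4 of the 27 tested genes with plain names. Among all genes tested, 30.4 percent were higher. SdhBL also read above whole males (mean 0.73) but did not pass. Counts are given for all tested genes, and the L-named genes among the called ones are stated.

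Oxidative phosphorylation moves electrons from NADH and succinate through complexes I to IV of the inner mitochondrial membrane to oxygen, and the ATP synthase uses the resulting proton gradient to make ATP. Most subunits are encoded in the nucleus, and a few core subunits in the mitochondrial genome, which is inherited through the mother. In the fly testis the mitochondria of spermatids fuse into the nebenkern and then elongate along the sperm tail. Many Drosophila genes for these subunits have a duplicate that is expressed mainly in the testis.

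The study compared testis RNA between species and between hybrids and their parents. Each array set testis RNA against RNA of whole D. melanogaster males. The species were D. melanogaster (strain 14021-0231.00, 3 arrays), D. simulans (strain 14021-0251.2, 3 arrays), D. mauritiana (strain 14021-0241.1, 4 arrays) and D. sechellia (strain #12, 3 arrays). The hybrid males had D. simulans mothers and D. melanogaster, D. mauritiana or D. sechellia fathers, and are called here melanogaster, mauritiana and sechellia hybrids, with 3 arrays each. In all 3 hybrids the mitochondrial genome therefore comes through a D. simulans mother. Every testis sample was a pool of 200 testes without accessory glands from 4-day-old males reared at 25 °C under 12 h of light. The males of crosses among these species are known to be sterile. The replicates are called independent by the submitters, but no label names a separate culture for each pool. The p-values therefore cover the spread between these arrays and no more.

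All values are ratios of testis over whole-male signal on a log scale, taken here as log2 from the values since no source used here states the base, and set so that the median named row of an array lies at 0. On that base a value of 1 is a 2-fold higher ratio than that of the median row, and every fold printed depends on it. The arrays carry D. melanogaster sequences, so weaker binding of another species' RNA and a lower level of the transcript cannot be told apart. In a whole testis, fewer cells of a type and less RNA per cell cannot be told apart either. Of the 36 genes, 32 had a value on at least 2 arrays of every group and were tested, as were 5107 genes in all. ND-13B, ND-18, ND-75 and ND-B8 had too few values in the mauritiana or sechellia hybrid arrays.

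Several arrays stood apart before any comparison. The arrays held 13019 to 27648 values. The SD of the difference between neighbouring duplicate spots was 1.65, 2.46 and 2.34 on the 3 sechellia arrays and between 0.29 and 0.67 on all others. On sechellia array 2 there were 2703 values of exactly 0, and 2526 on sechellia array 3. Sechellia hybrid array 2 correlated at 0.364 and 0.408 with the other 2 arrays of its group, which correlated at 0.833 with each other. The number of arrays limits the precision of every value. Melanogaster arrays 1 and 2 (r = 0.973) and simulans arrays 1 and 2 (r = 0.981) were closer to each other than to the third array of their group. Testis germline markers fit the tissue label in melanogaster, with an array median of 2.04 to 2.33 over the 7 tested, and 5 of these 7 were higher than in whole males.

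**Figure D1:**
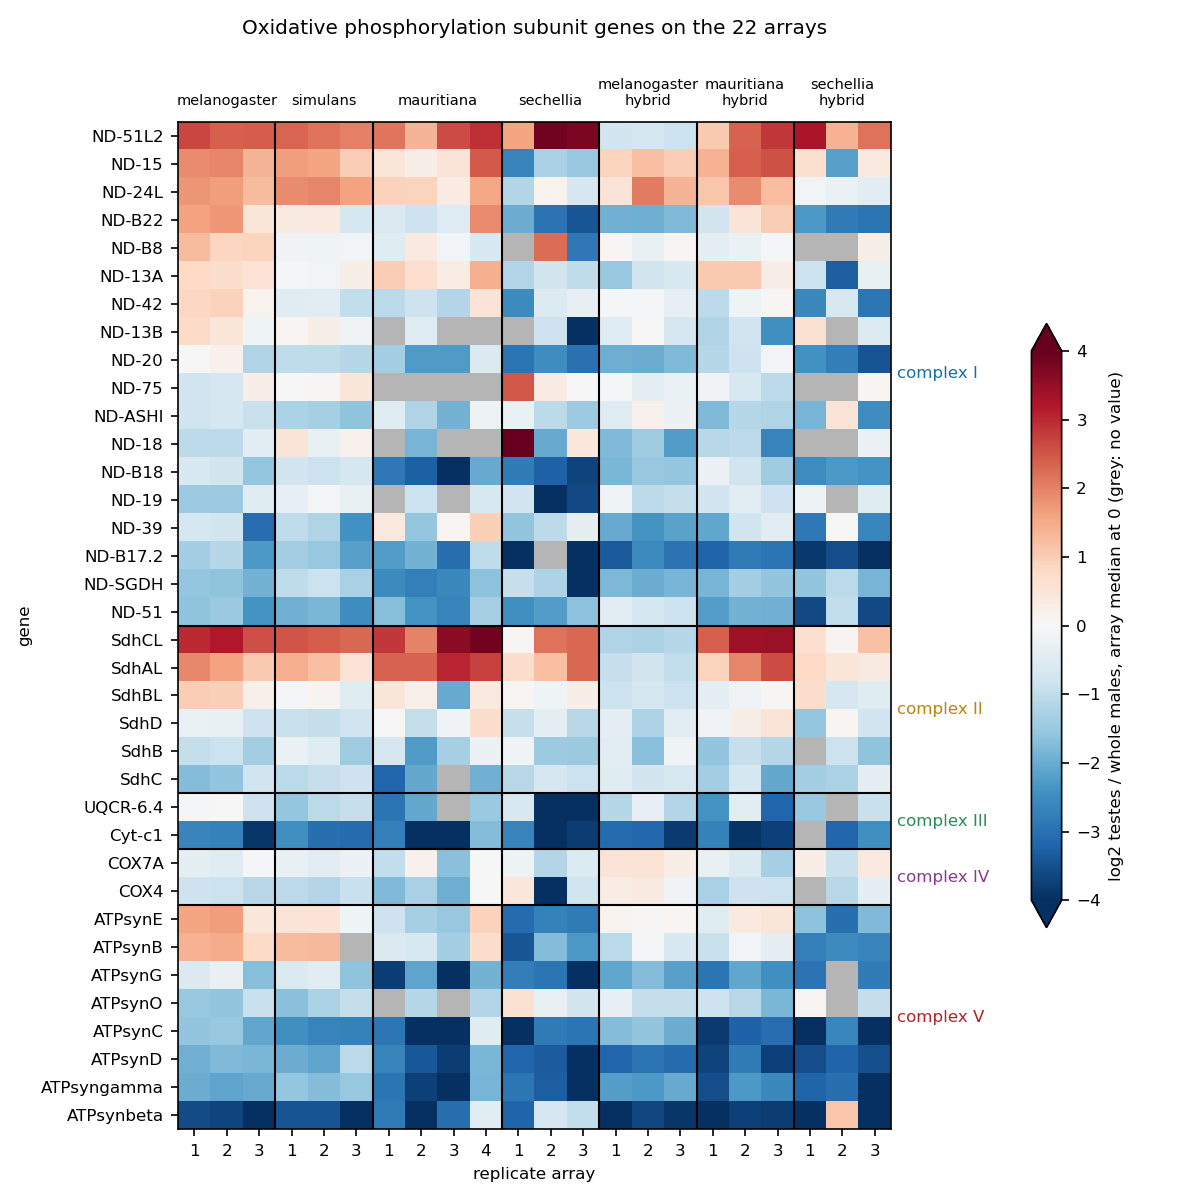
Log2 ratio of testes over whole males for each of the 36 genes (rows, grouped by complex and ordered by their melanogaster mean) on each of the 22 arrays (columns, grouped by species or hybrid). Red is above and blue below the array median, the colour scale ends at 4 in either direction, and grey marks a missing value. ND-51L2, SdhCL and SdhAL are red in the 4 species, except for SdhCL on sechellia array 1 (0.06), which is nearly white. In the melanogaster hybrid the 3 genes are blue, and all their values lie between -1.26 and -0.71.

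The first comparison was of D. melanogaster testes with whole males of the same species, the one contrast in which both RNAs match the array's species. Dye and amplification differed between testis and whole-male RNA, always in the same way, so their effects stay in these ratios. The catalytic and central stalk genes of the ATP synthase, Cyt-c1 of complex III and the NADH-binding ND-51 of complex I read lower in testes. Of the 5 L-named paralogs, 4 were higher by the test. Of the 32 genes, 14 were lower and 8 higher. Among all genes tested, 13.9 percent were lower and 30.4 percent higher. Under quantile normalization 17 members were lower and 6 higher. The median of the set was -0.83 against 0.18 for all genes. The 27 genes whose symbols do not end in L had a median of -0.96, with 14 lower and 4 higher. The 5 that do had a median of 1.56, with 4 higher and none lower.

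In complex V, 5 of the 8 genes were lower and 2 higher. ATPsynbeta, the catalytic subunit of the F1 head, read -3.57, -3.66 and -4.41 on the 3 arrays. All 3 values lay far below 0, and the mean of -3.88 ± 0.89 (SE) was 14.7-fold below the array median (adjusted p = 0.00135, limma). Only 0.294 percent of the genes tested had a mean as low or lower. ATPsyngamma, the central stalk that turns inside the head, read -1.99, -2.11 and -2.02, which was the tightest triplet of the complex (-2.04 ± 0.34, adjusted p = 6.35e-05). ATPsynD of the peripheral stalk read -1.93, -1.77 and -1.83 (-1.84 ± 0.30, adjusted p = 5.51e-05). ATPsynO, the subunit that couples the stalk to the head and is known as OSCP, was lower at -1.33 ± 0.30, and ATPsynC, the membrane rotor ring, at -1.73 ± 0.52. ATPsynC was not past the threshold without melanogaster array 3 (adjusted p = 0.0715).

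The complex was not low as a whole. ATPsynB, another part of the peripheral stalk, read 1.39, 1.49 and 0.76, and ATPsynE, a small membrane subunit, read 1.59, 1.66 and 0.44. All 6 values were above 0, with array 3 the lowest for both genes. Their means were 1.21 ± 0.34 and 1.23 ± 0.38, with adjusted p-values of 0.0064 and 0.0112. Neither was past the threshold without melanogaster array 1 or array 2, with adjusted p-values of 0.0515 and 0.0597 for ATPsynB and 0.0959 and 0.104 for ATPsynE. Under quantile normalization the adjusted p-values were 0.0577 and 0.0704. ATPsynG, which sits beside ATPsynE in the membrane part, had a mean of -0.86 ± 0.44 and did not pass.

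Complex III was measured through 2 genes. Cyt-c1, which hands electrons to cytochrome c, read -2.65, -2.70 and -3.90, all far below 0. Its mean was -3.08 ± 0.43 (adjusted p = 1.28e-05), 8.46-fold below the array median. UQCR-6.4, a small accessory subunit, read -0.03, 0.01 and -0.82 and did not pass. The 2 genes of complex IV, the cytochrome oxidase subunits COX4 and COX7A, had means of -0.94 ± 0.63 and -0.32 ± 0.32, and neither passed in any of the 10 comparisons.

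Complex I was mixed, with 6 genes lower and 4 higher of 14. ND-51, the core flavoprotein that takes electrons from NADH, read -1.60, -1.47 and -2.41 (-1.83 ± 0.38, adjusted p = 0.000549). The accessory subunit ND-B17.2 read -1.36, -1.14 and -2.30 (-1.60 ± 0.31). Both were below 0 on every array. The accessory genes ND-SGDH (-1.68), ND-39 (-1.49), ND-19 (-1.13) and ND-B18 (-0.96) were lower as well. Of these, ND-39 rested on array 3, which read -3.03 against -0.71 and -0.74 on the others, and without it the adjusted p was 0.362. ND-19 was not past the threshold without array 1 (adjusted p = 0.209) or array 2 (0.208), nor ND-B18 without array 2 (0.0516) or array 3 (0.193).

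The genes that were higher in complex I included 2 subunits with plain names. ND-15 read 1.89, 1.94 and 1.35 (1.73 ± 0.45, adjusted p = 0.00363) and ND-B22 read 1.59, 1.72 and 0.48 (1.27 ± 0.43, adjusted p = 0.0211). Both encode accessory subunits, and all 6 values were above 0. ND-B22 was not past the threshold without array 1 (adjusted p = 0.13) or array 2 (0.149). The other 2 were ND-24L, which read 1.75, 1.68 and 1.26, and ND-51L2, which read 2.66, 2.40 and 2.42. ND-20, a core iron-sulfur subunit on the path to ubiquinone, read 0.03, 0.17 and -1.19 and did not pass. Of the untested genes, ND-B8 averaged 1.01 ± 0.24 (SD, n = 3), ND-13B 0.35, ND-75 -0.40 and ND-18 -0.85.

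Complex II, succinate dehydrogenase, divided by name. SdhC, a membrane anchor, read -1.73, -1.58 and -0.80 (-1.37 ± 0.29, adjusted p = 0.000719). SdhB, the iron-sulfur subunit, read -0.95, -0.85 and -1.38 (-1.06 ± 0.37) and was not past the threshold without any 1 of the 3 arrays (adjusted p from 0.065 to 0.142). The other anchor, SdhD, had a mean of -0.46 and did not pass. In contrast SdhCL read 2.99, 3.20 and 2.59, the highest mean of the 32 genes at 2.93 ± 0.37, and SdhAL read 1.93, 1.60 and 1.06 (1.53 ± 0.31). Every SdhCL and SdhAL value lay above 0. SdhBL averaged 0.73 and did not pass. Muscle, a tissue of the whole body rich in mitochondria, was low in the same arrays. The muscle markers had an array median of -1.71 to -1.36 over the 9 tested, 5 of them lower and 1 higher. Their part in the low subunit values was not tested.

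**Figure D2:**
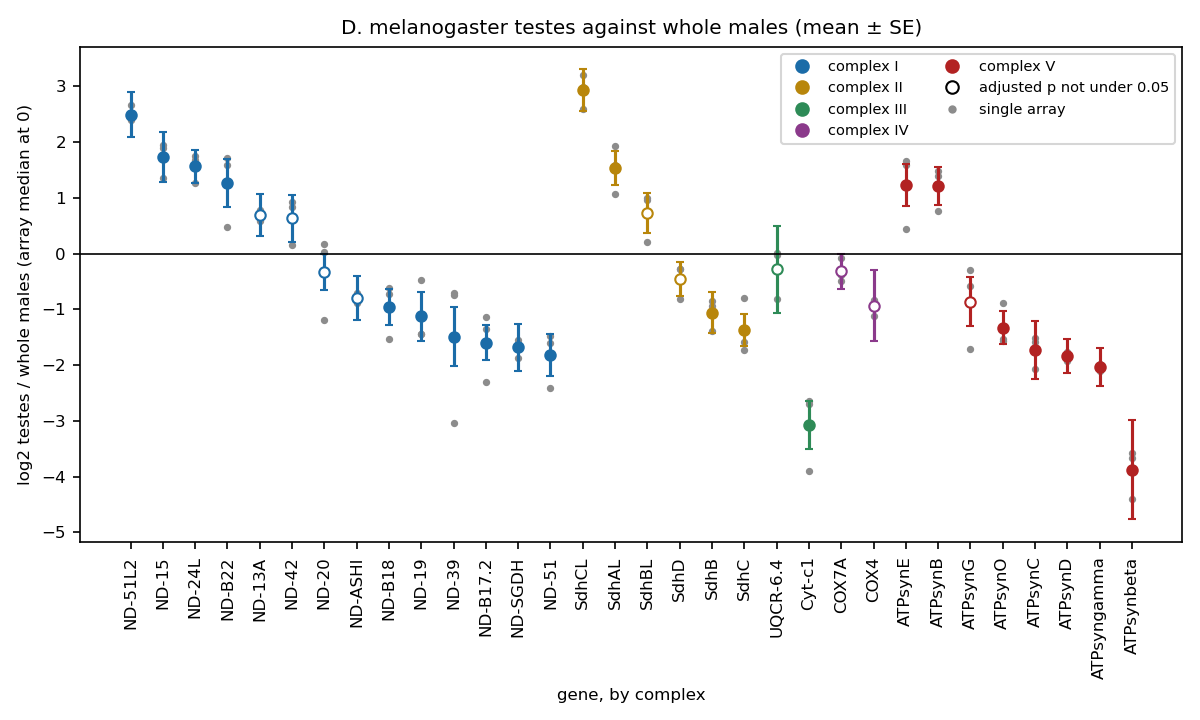
Log2 ratio of D. melanogaster testes over whole males for the 32 tested genes, ordered within each complex. Grey points are the 3 arrays, coloured points the mean with its SE, and open points did not reach an adjusted p under 0.05. Cyt-c1 (-3.08) and ATPsynbeta (-3.88) are the lowest genes, and SdhCL (2.93) and ND-51L2 (2.49) the highest.

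No gene of the set was called between D. simulans and D. melanogaster testes. Only 1.06 percent of all genes passed, so the 0 of 32 is not particular to these genes. The median difference was -0.09 for the set and -0.06 for all genes, and 1 member had an unadjusted p under 0.05. That gene was ND-42, an accessory subunit, at -1.27 ± 0.60. The array medians of the set were -0.92 to -0.83 in simulans and -0.85 to -0.60 in melanogaster. Across the 32 genes the 2 species' means correlated at 0.942, as a description over genes that share the reference RNA and the probes. The 95% intervals show what the spread allows. For SdhCL the interval of the difference ran from -1.62 to 0.58, and for ATPsynB from -1.06 to 1.17. The count moved with the estimate of the spread, since 3 genes passed when it came only from these 6 arrays and 17 when arrays were weighted.

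D. mauritiana testes were lower than D. melanogaster testes in 4 genes and higher in none. Of all genes, 4.44 percent were lower and 2.19 percent higher. The median difference was -0.54 for the set and -0.19 for all genes. None of the 4 was L-named. ND-B18 is an accessory subunit of the membrane arm of complex I, and the other 3 genes belong to the ATP synthase.

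ND-B18 read -2.86, -3.27, -4.45 and -2.03 in mauritiana, where melanogaster read -0.62, -0.73 and -1.54 and simulans -0.77, -0.87 and -0.72. All 4 mauritiana values lay below all 6 values of the other 2 species. The difference was -2.19 ± 0.43 from melanogaster (adjusted p = 0.00536) and -2.37 ± 0.43 from simulans (adjusted p = 0.00214). The call held without any 1 array in both comparisons. With the closest array pairs averaged the difference from melanogaster had an adjusted p of 0.0837.

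ATPsynB read -0.57, -0.63, -1.36 and 0.71 in mauritiana, below the 1.25 and 1.29 of the 2 simulans arrays that measured it and below every melanogaster value (-1.68 ± 0.45 from melanogaster, adjusted p = 0.0292). ATPsynE read -0.84, -1.34, -1.50 and 0.93, and array 4 overlapped the melanogaster values (-1.92 ± 0.50, adjusted p = 0.0245). ATPsynG read -3.76, -2.12, -4.05 and -1.90, all below the lowest melanogaster value of -1.72 (-2.09 ± 0.58, adjusted p = 0.0359). The 3 ATP synthase genes all missed the threshold without mauritiana array 1, mauritiana array 3, melanogaster array 1 or melanogaster array 2, with adjusted p-values from 0.069 to 0.174. The differences then ran from -1.64 to -1.38 for ATPsynB, from -1.87 to -1.65 for ATPsynE and from -1.95 to -1.73 for ATPsynG. The count was 1 without any of these 4 arrays and 9 without mauritiana array 4.

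Against simulans, 5 genes were lower and 1 higher in mauritiana, where 4.29 percent of all genes were lower and 6.74 percent higher. Under quantile normalization 5 were lower and 3 higher. ND-B18, ATPsynB and ATPsynG were again lower, with ATPsyngamma (-1.57 ± 0.45, adjusted p = 0.0312) and SdhC (-1.44 ± 0.41, adjusted p = 0.031). Both comparisons use the same 4 mauritiana arrays. The higher gene was SdhAL, which read 2.36, 2.37, 3.05 and 2.74 in mauritiana and 1.45, 1.21 and 0.56 in simulans, with no overlap (1.56 ± 0.41, adjusted p = 0.0198). Without 1 array the count fell to 3 (mauritiana array 1), 2 (mauritiana array 3, simulans array 1 or simulans array 3) and 1 (simulans array 2). The 5 genes other than ND-B18 each missed the threshold without at least 1 array, with adjusted p-values up to 0.163. SdhC is read by 4 rows that disagree: in mauritiana one measured -0.12 on a single array and the 2 others with values averaged -2.72 and -2.67.

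**Figure D3:**
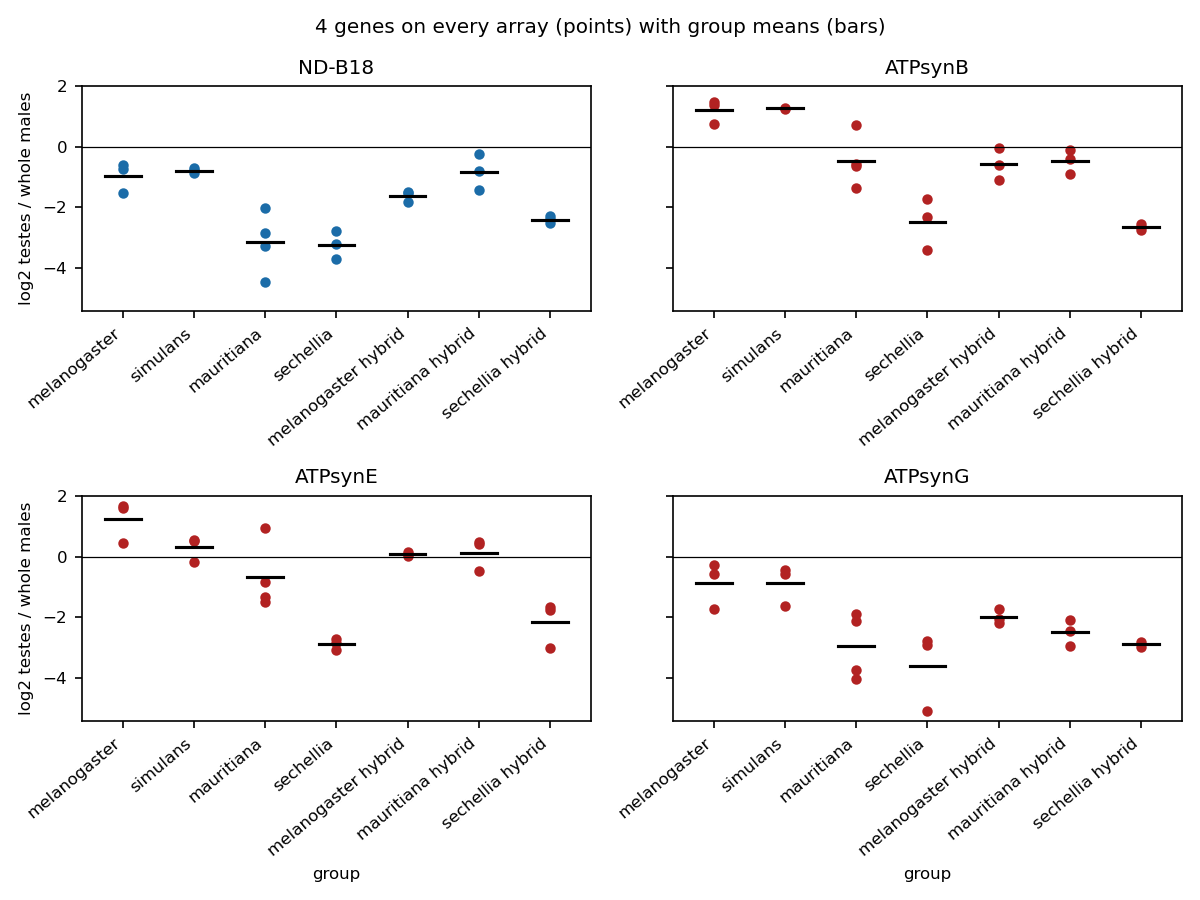
Log2 ratio of testes over whole males for ND-B18, ATPsynB, ATPsynE and ATPsynG on every array (points) in the 7 groups, with group means (bars). In mauritiana and sechellia all values of ND-B18 lie below those of melanogaster and simulans, and the mauritiana hybrid (-0.23, -0.80 and -1.43) lies with melanogaster and simulans.

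D. sechellia testes, read on the arrays with the poorest duplicate spots, had lower values than D. melanogaster testes in many of the genes. Against melanogaster 16 genes were lower and 1 higher, where 26.1 percent of all genes were lower and 7.66 percent higher. The median difference was -1.39 for the set and -0.48 for all genes. Against simulans 13 were lower and 1 higher, beside 19.5 percent and 6.76 percent of all genes. Of the lower genes 2 were L-named against melanogaster and 1 against simulans. Complex I had 9 of its 14 genes lower than in melanogaster, complex V 5 of 8, complex II 1 of 6, complex III 1 of 2 and complex IV none.

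ATPsynE read -3.07, -2.71 and -2.84 in sechellia against 1.59, 1.66 and 0.44 in melanogaster, with no overlap (-4.11 ± 0.53, adjusted p = 1.3e-05). ATPsynB read -3.41, -1.74 and -2.30 (-3.70 ± 0.48 from melanogaster, adjusted p = 1.54e-05; -3.75 ± 0.53 from simulans, adjusted p = 9.96e-05). ND-B22 read -1.98, -2.96 and -3.44 (-4.06 ± 0.61 from melanogaster). These 3 genes lay below every melanogaster and simulans value on all 3 sechellia arrays. ND-15 read -2.67, -1.30 and -1.52, again below all 6 values of those species (-3.56 ± 0.63 from melanogaster). ND-B17.2 had 2 values, -4.45 and -4.86 (-3.06 ± 0.49), and ND-20 read -2.92, -2.50 and -2.99 (-2.47 ± 0.45). UQCR-6.4 gave the widest triplet, at -0.65, -6.27 and -7.32.

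A single gene was higher in sechellia. ATPsynO read 0.62, -0.31 and -0.72 against -1.53, -1.58 and -0.88 in melanogaster, with no overlap (1.19 ± 0.42, adjusted p = 0.0365). Its call was lost without sechellia array 1 (adjusted p = 0.131), melanogaster array 1 (0.113) or melanogaster array 2 (0.12), and against simulans without any 1 of the 6 arrays except sechellia array 3 (adjusted p from 0.0566 to 0.178). The counts depended on the scaling, since under quantile normalization 8 genes were lower and 2 higher than in melanogaster, and 7 lower and 4 higher than in simulans. With that scaling the members' median difference from melanogaster was -0.26 beside -0.19 for all genes, and from simulans 0.04 beside -0.09. Without melanogaster array 1 or 2 the count against melanogaster was 11. Of the 17 calls against melanogaster, 11 held without any 1 array, ATPsynB, ATPsynE, ND-B22, ND-15, ND-B17.2 and ND-20 among them. Under quantile normalization ND-B17.2 was at -1.21 (adjusted p = 0.143) and ND-20 at -1.32 (adjusted p = 0.0728) from melanogaster, and at -0.70 (adjusted p = 0.42) and -0.12 (adjusted p = 0.895) from simulans, so neither passed. The muscle markers were low in sechellia too, with an array median of -3.93 to -2.43, and 3 of 7 testis germline markers were lower than in melanogaster. Their part was not tested.

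The hybrids were each set against the mean of their 2 parents, which share the simulans arrays. The melanogaster hybrid had 10 genes past the threshold, the mauritiana hybrid 0 and the sechellia hybrid 1. The melanogaster hybrid also had the largest share over all genes. Of all genes 2.33 percent passed in the mauritiana hybrid, and in the sechellia hybrid 4.78 percent were lower and 1.04 percent higher. The 10 were 31.2 percent of the set. This was close to the share over all genes, where 19.6 percent were lower and 12.4 percent higher. In the set 9 were lower and 1 higher. Under quantile normalization 7 were lower and 4 higher. The median shift was -0.44 for the set and 0.03 for all genes. Of the 5 L-named genes 3 were lower, with a median of -2.18, and of the 27 others 6 were lower and 1 higher, with a median of -0.35.

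SdhCL read -1.20, -1.26 and -1.15 in the melanogaster hybrid, against 2.59 to 3.20 in melanogaster and 2.29 to 2.51 in simulans. The hybrid values sat more than 3 units below every parental value, with a shift of -3.87 ± 0.46 (adjusted p = 1.32e-06). ND-51L2 read -0.76, -0.71 and -0.85 against 2.40 to 2.66 in melanogaster and up to 2.32 in simulans, all above 0 (-3.11 ± 0.50, adjusted p = 5.04e-05). SdhAL read -0.92, -0.72 and -0.98 against 0.56 to 1.93 (-2.18 ± 0.38, adjusted p = 0.000118). In all 3 genes the hybrid went from above to below the array median. SdhBL read -0.85, -0.71 and -0.86, below every parental array, but its shift of -1.09 ± 0.44 did not pass. ND-24L, at 0.53, 2.09 and 1.37, overlapped both parents and did not pass (-0.36 ± 0.36).

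Among the plain-named subunits, ND-B22 moved furthest. It read -1.92, -1.95 and -1.76 in the hybrid, 1.59, 1.72 and 0.48 in melanogaster and 0.37, 0.40 and -0.71 in simulans (-2.52 ± 0.53, adjusted p = 0.000787). ATPsynB read -1.09, -0.05 and -0.60, below all 5 parental values (-1.82 ± 0.43, adjusted p = 0.00248). ATPsynD read -3.17, -2.91 and -3.08, below the lowest parental value of -2.10 (-1.27 ± 0.37, adjusted p = 0.0117). ND-B17.2 read -3.37, -2.55 and -2.96 (-1.32 ± 0.38, adjusted p = 0.0114). These 4 genes had no overlap with either parent. ND-20 (-1.20 ± 0.39, adjusted p = 0.0213) and ND-13A, an accessory subunit beside the iron-sulfur core (-1.31 ± 0.46, adjusted p = 0.0329), were lower as well.

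The higher gene was ND-51, at -0.45, -0.71 and -0.85 in the hybrid against -2.47 to -1.47 in the parents (1.28 ± 0.46, adjusted p = 0.0394). It stayed below the array median, and no hybrid value overlapped a parental one. On melanogaster hybrid arrays 2 and 3 the L-named ND-51L2 (-0.71 and -0.85) and SdhBL (-0.71 and -0.86) read almost the same as ND-51. Whether such values mark a floor of the signal was not tested. COX4 read 0.28, 0.37 and -0.13 and COX7A read 0.50, 0.55 and 0.27, in both cases above all 6 parental arrays. Their shifts of 1.16 and 0.76 did not pass. Counted by arrays alone, 11 of the 32 genes had all hybrid values below both parents and 5 had all above, where the shares among all genes were 22.7 and 21.1 percent. The 5 were COX4, COX7A, ND-51, ND-ASHI and SdhC.

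Without melanogaster hybrid array 1 the count of called genes was 6 instead of 10. The calls of SdhCL, ND-51L2, SdhAL, ND-B22 and ATPsynB held under every alternative that gave a value. Under quantile normalization ATPsynD was at -0.78 (adjusted p = 0.117), ND-B17.2 at -0.94 (0.11) and ND-20 at -1.09 (0.0636), and none of these 3 passed. ND-B17.2 was also lost without melanogaster hybrid array 1 (adjusted p = 0.0756). ND-51 did not pass without centring (1.08, adjusted p = 0.16). ND-51 missed the threshold without any 1 of the 3 hybrid arrays, melanogaster array 3, simulans array 1 or simulans array 3 (adjusted p from 0.0535 to 0.133). ND-20 missed it without any 1 hybrid array or melanogaster array 2 (0.0517 to 0.0738), and ND-13A without any 1 hybrid array, melanogaster array 1 or 2 or simulans array 3 (0.0528 to 0.175). Testis germline markers fell in the same arrays, to an array median of -3.09 to -2.09 with 6 of 7 below the parental mean by the test. Both accessory gland and duct markers tested were higher, with an array median of 0.55 to 1.40 against -4.95 to -3.90 in melanogaster. Muscle markers had an array median of -3.41 to -2.94, with 3 of 9 lower. The part of these markers in the shifts was not tested.

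**Figure D4:**
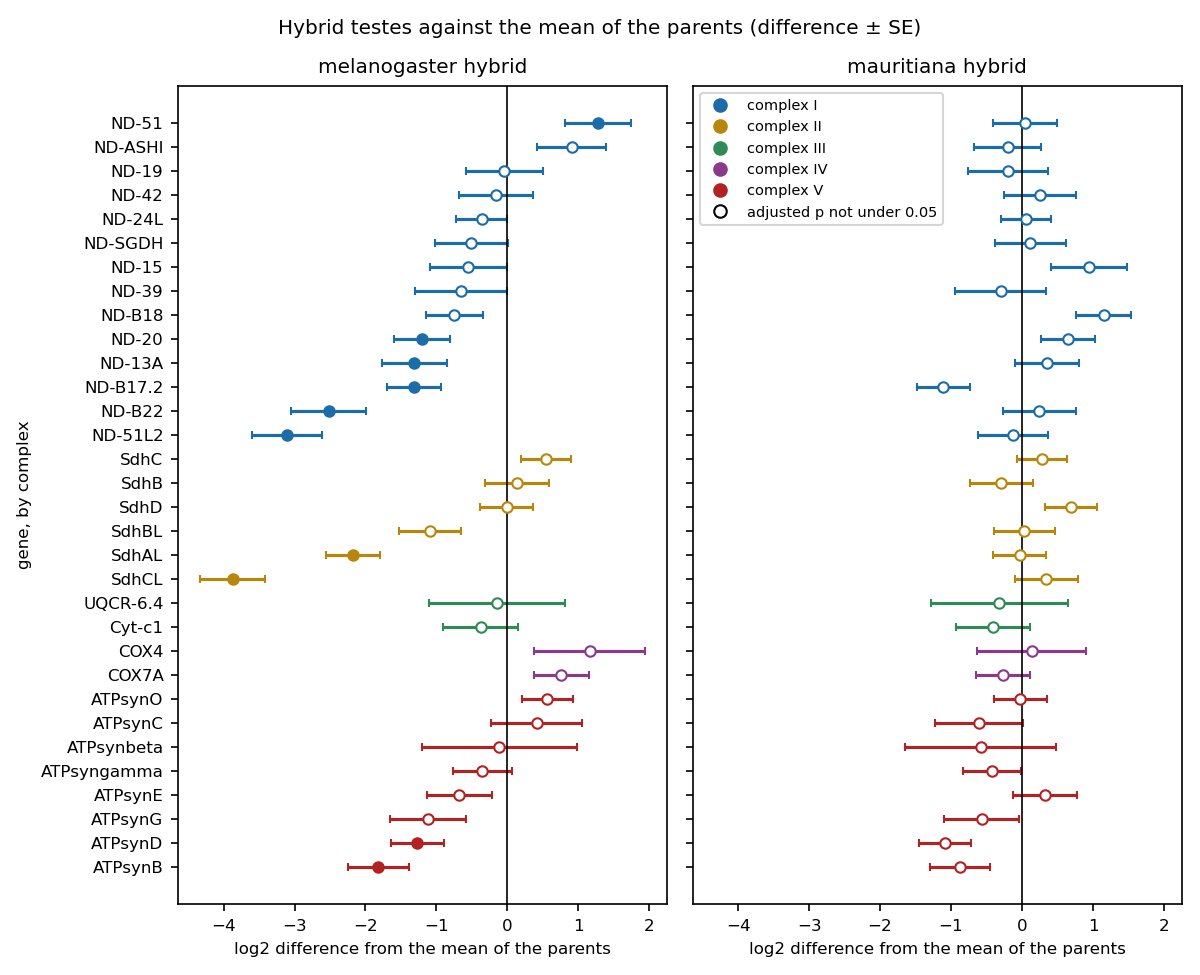
Difference of the melanogaster hybrid (left) and the mauritiana hybrid (right) from the mean of their parents, log2 with its SE, for the 32 tested genes by complex. Filled points reached an adjusted p under 0.05: 10 on the left, from SdhCL at -3.87 to ND-51 at 1.28, and none on the right.

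The L-named relatives can be set beside the subunits they resemble, each by its own change. SdhC had a shift of 0.54 ± 0.35 in the melanogaster hybrid and SdhCL one of -3.87 ± 0.46. For ND-51 and ND-51L2 the shifts were 1.28 ± 0.46 and -3.11 ± 0.50, and for SdhB and SdhBL 0.14 ± 0.46 and -1.09 ± 0.44. Of the COX and ATPsyn paralogs outside the set, 4 were tested, and all 4 were lower in the hybrid, where 19.6 percent of all genes were. COX7AL fell, with a shift of -4.93 ± 0.52 beside 0.76 ± 0.39 for COX7A, and COX6AL shifted by -2.58 ± 0.40 beside 0.95 ± 0.38 for levy, which encodes the ordinary COX6A subunit. ATPsynGL shifted by -3.29 ± 0.40, and ATPsynG had a shift of -1.12 ± 0.54 that did not pass. COX6CL shifted by -4.37 ± 0.50. ATPsynbetaL had 1 value in the sechellia hybrid and was not tested. It averaged -0.36 in the melanogaster hybrid, from -0.80 to -0.06, beside -0.37 in melanogaster and 0.18 in simulans, and it overlapped melanogaster but not simulans. In melanogaster testes against whole males COX7AL (2.85 ± 0.42), COX6AL (3.05 ± 0.33) and ATPsynGL (2.26 ± 0.33) were higher. The differences between the members of a pair were not tested.

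**Figure D5:**
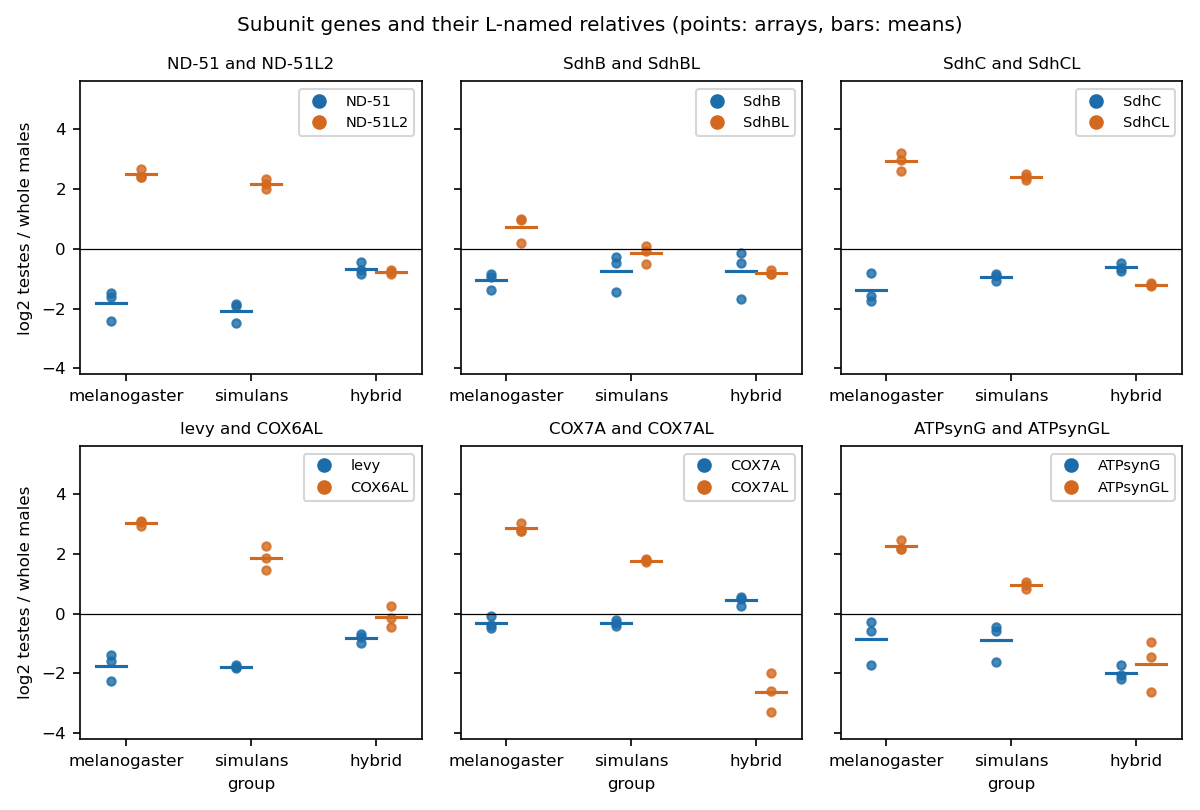
Log2 ratio of testes over whole males on each array (points) and group means (bars) for 6 subunit genes (blue) and their L-named relatives (orange) in melanogaster, simulans and the melanogaster hybrid. SdhCL, ND-51L2 and COX7AL lie above 0 in both parents and below 0 in the hybrid. Of the blue genes, SdhC, ND-51, COX7A and levy lie higher in the hybrid than in the parents, and among these only the shift of ND-51 passed. ATPsynG lies below both parents in the hybrid, and SdhB overlaps them.

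Other mitochondrial genes gave a comparison for the melanogaster hybrid. Of 5 tested genes of the citric acid cycle and pyruvate dehydrogenase, 4 fell below the parental mean, where 19.6 percent of all genes were lower. The list median was -2.05, beside 0.03 for all genes. They were ScsbetaA, a subunit of succinyl-CoA synthetase (-4.06 ± 0.46), Idh3b, a subunit of isocitrate dehydrogenase (-2.35 ± 0.56), muc, the E2 component of pyruvate dehydrogenase (-2.05 ± 0.30), and mAcon2, an aconitase (-1.78 ± 0.43). None of 7 assembly factors of the chain passed, and their list median was -0.32. Across the 32 subunit genes, the level in mauritiana testes correlated at -0.545 with the shift of the melanogaster hybrid. The value was -0.137 over the 27 plain-named genes and -0.58 over all 5107. Mauritiana arrays do not enter this shift, but over the 32 genes their means correlated at 0.854 with melanogaster and 0.838 with simulans. The shift subtracts the mean of those parents, so a negative value was favoured in advance and no conclusion is drawn from it. These points also share the reference RNA and the probes, and genes are not replicates.

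In the mauritiana hybrid none of the 32 genes passed, 3 had an unadjusted p under 0.05, and none had all its arrays outside both parents. Of all genes 2.33 percent passed, and the shares outside the parents were 1.63 percent below and 4.68 percent above. The median shift was -0.03 for the set and 0.07 for all genes. SdhCL read 2.39, 3.39 and 3.46 and ND-51L2 read 1.05, 2.37 and 2.84, so both stayed above 0 and overlapped their parents. The 95% interval of the shift ran from -0.59 to 1.28 for SdhCL and from -1.15 to 0.89 for ND-51L2. The 3 genes were ND-B18 (1.15 ± 0.39), ND-B17.2 (-1.11 ± 0.37) and ATPsynD (-1.08 ± 0.36). ND-B18 read -0.23, -0.80 and -1.43, at the level of simulans rather than of mauritiana, and its adjusted p was 0.129. One gene passed without mauritiana array 4.

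The 2 hybrids were then compared with each other by the difference of their shifts, in which the simulans parent cancels. The melanogaster hybrid's shift was lower in 7 genes (21.9 percent) and higher in none, where 17.4 percent of all genes were lower and 5.58 percent higher. Under quantile normalization 7 were lower and 1 higher. SdhCL differed most (-4.21 ± 0.58, adjusted p = 1.95e-05), followed by ND-51L2 (-2.98 ± 0.64), ND-B22 (-2.76 ± 0.67), SdhAL (-2.15 ± 0.48), ND-B18 (-1.90 ± 0.51), ND-20 (-1.85 ± 0.50) and ND-13A (-1.66 ± 0.58). Complexes I and II, which supplied 14 and 6 of the 32 tested genes, held all 7, 5 and 2 of them. Of the 7, 3 were L-named. The other 4 were 14.8 percent of the 27 plain-named genes, a share below that of all genes. For the 8 ATP synthase genes the median difference of shifts was -0.06. Of the 7 calls, 6 held without any 1 array. ND-13A missed the threshold without 1 array in 11 of the 13 ways, with adjusted p-values up to 0.152.

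In the sechellia hybrid a single gene passed, where 4.78 percent of all genes were lower and 1.04 percent higher. Without centring 9 genes were lower and under quantile normalization 6, and none was higher in either. Another 8 genes had an unadjusted p under 0.05, and the median shift was -0.46 for the set and -0.02 for all genes. The gene was ATPsynB, at -2.75, -2.54 and -2.63. These values lay below both simulans arrays and within the spread of sechellia, from -3.41 to -1.74 (shift -2.03 ± 0.43, adjusted p = 0.0117). Without sechellia hybrid array 1 its adjusted p was 0.0605, with the spread from the arrays compared only it was 0.134, and with the closest array pairs averaged 0.215. No gene had all its arrays outside both parents, where the shares of all genes were 3.25 percent below and 4.11 percent above. Without sechellia hybrid array 2, the one that stood apart, 3 genes passed, and without sechellia array 1 6 did. On that hybrid array ATPsynbeta read 1.11, against -4.78 and -5.31 on the other 2, and ND-51 read -0.97 against -3.60 and -3.60. SdhCL (0.66, 0.10 and 1.18) and ND-51L2 (3.27, 1.40 and 2.18) stayed above 0 on all 3 arrays.

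Over the 7 groups the ATP synthase genes, the L-named genes and the cytochrome oxidase genes kept different orders. The array median of the 8 ATP synthase genes was -1.77 to -1.55 in melanogaster, -1.61 to -1.50 in simulans and -1.99 to -1.64 in the melanogaster hybrid. It was -3.12 to -2.78 in sechellia, -3.16 to -2.82 in the sechellia hybrid and -3.24 to -2.19 in the mauritiana hybrid. With this centring the first 3 groups did not overlap the last 3. Mauritiana overlapped all of them, from -3.79 to -0.83, with array 4 the highest. Under quantile normalization ATPsynD and ATPsyngamma read higher in sechellia than in melanogaster (0.32 and 0.60) and simulans (0.58 and 0.51). None of these differences passed. The 5 L-named genes had array medians of 1.26 to 1.93 in melanogaster, 1.61 to 1.94 in simulans and 1.35 to 2.74 in mauritiana. The medians were 1.05 to 2.60 in the mauritiana hybrid, 0.08 to 2.29 in sechellia and 0.10 to 0.71 in the sechellia hybrid. In the melanogaster hybrid the median of the L-named genes was -0.86 to -0.71, below every array of the other 6 groups. The median of the 2 cytochrome oxidase genes was above 0 on all 3 melanogaster hybrid arrays, from 0.07 to 0.46, and below 0 on all melanogaster and simulans arrays. It was also above 0 on mauritiana array 4 (0.02), sechellia array 1 (0.12) and sechellia hybrid arrays 1 (0.27) and 3 (0.006). Between arrays of a group the median SD of a member was lowest in the melanogaster hybrid, at 0.202, and highest in mauritiana, at 0.851. Over all genes these 2 groups had 0.298 and 0.528, and the lowest and highest were simulans (0.223) and sechellia (0.769).

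ATPsynB passed the threshold in 7 of the 10 comparisons, ND-B18 in 6 and ND-B22 in 5. ATPsynD, ATPsynE, ATPsynG, ATPsyngamma, ND-20, ND-B17.2, SdhAL and SdhCL passed in 4 each. COX4, COX7A, ND-ASHI, SdhBL and SdhD passed in none. ND-ASHI is an accessory subunit of complex I, which read -0.80, -0.71 and -0.90 in melanogaster and -0.53, 0.17 and -0.23 in the melanogaster hybrid. Most of these comparisons share arrays, so the counts are not independent of each other.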

How the data were processed

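Testis RNA (Cy5, amplified in 1 round) and whole-male D. melanogaster RNA (Cy3, not amplified per the labels) were hybridised together on 22 arrays, always in the same dye order, so dye and amplification effects stay in every ratio against whole males. The authors deposited 1 normalized log value per row, taken here as log2 from the values. The log base and the within-array normalization are not given in the sources used here. Of 27648 rows, 15116 carried 1 gene symbol, 102 several, and 12430 were not listed. Each array was centred on the median of the named rows, and rows of a gene, 86 for the 36 members, were averaged. Under R 4.3.3, group means were fitted and moderated with limma 3.58.1 (lmFit, then eBayes, all arrays in 1 fit) on the 5107 genes measured on 2 or more arrays in each group. Benjamini-Hochberg adjustment ran over all of them, and the threshold was 0.05. The ratio against whole males was tested against 0, which leaves out the spread of the reference. The fit was tested on simulated data. ± is the SE of a difference unless marked SD. Genes were named by a rule: per comparison up to 6 past the threshold in each direction with the smallest p, the highest and lowest melanogaster mean per complex, the 8 past the threshold most often, and the 6 furthest outside both parents. Members shown for completeness were chosen after their values were seen. The members, the lists of other mitochondrial genes and of tissue markers, and the rule were chosen with earlier results of these data known. Alternatives covered centring, quantile normalization, missing values, rows, the estimate of the spread, array weights, replicate numbers and single arrays. Gene sequences were not used here.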

Additional observations from a re-analysis of the deposited data

Results flagged for a closer look

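Mauritiana was the one group of 4 arrays, and 3 of the 29 members with 4 values there had 1 array apart from the rest by Dixon's test at 95%. ND-15 read 2.46 on array 4 and 0.23 to 0.53 on the others. ND-B22 read 1.9 on array 4 and -0.82 to -0.51 on the others. SdhBL read -2.02 on array 3 and 0.19 to 0.48 on the others. The median of the 27 plain-named genes was -0.478 on mauritiana array 4 and -1.94 to -1.70 on the others. Chance alone flags about 1 in 20 such groups. Without mauritiana array 4, 9 genes instead of 4 were lower than in melanogaster.

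The shift from the mean of the parents differed between the melanogaster and mauritiana hybrids, by limma's test of the difference, in SdhCL (-4.21), ND-51L2 (-2.98), ND-B22 (-2.76), SdhAL (-2.15), ND-B18 (-1.9), ND-20 (-1.85) and ND-13A (-1.66). In ND-B18 the shifts had opposite signs, -0.74 in the melanogaster hybrid and 1.15 in the mauritiana hybrid, and neither passed on its own.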

How the results depend on the processing

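Of 81 called results, 36 held in every alternative, and 1205 of 1425 alternative fits kept the call. Counts of called genes are given in the order main, then alternative. Simulans against melanogaster went from 0 to 3 with the spread from the arrays compared only, and to 17 with array weights. Mauritiana against melanogaster went from 4 to 18 with weights, 9 with a replicate block, 0 with the closest array pairs averaged and 7 without the sechellia arrays; mauritiana against simulans went from 6 to 14 and, with pairs averaged, 1. Sechellia against melanogaster went from 17 to 10 under quantile normalization or with the spread from the arrays compared only, and 11 with genes on all 22 arrays or with pairs averaged; sechellia against simulans went from 14 to 8 with genes on all 22 arrays and 9 with the arrays compared only. The melanogaster hybrid went from 10 to 17 with the arrays compared only, 23 with weights and 6 with pairs averaged. The mauritiana hybrid went from 0 to 1 under quantile normalization or a replicate block and 3 with weights. The sechellia hybrid went from 1 to 9 without centring, 6 under quantile normalization, 8 with weights, and 0 with genes on all 22 arrays, with the arrays compared only or with pairs averaged. The difference of the 2 shifts went from 7 to 15 with weights. Under quantile normalization ATPsynD and ATPsyngamma turned to 0.32 and 0.60 in sechellia against melanogaster, and to 0.58 and 0.51 against simulans. The cause was not tested in any of these cases. The weights of melanogaster arrays 1, 2 and 3 were 6.85, 6 and 0.653.

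Leaving out 1 array at a time, in the order of the report, gave 16 to 18, 0 to 0, 1 to 9, 1 to 8, 11 to 16, 12 to 16, 6 to 10, 0 to 1 (mauritiana hybrid), 0 to 6 (sechellia hybrid) and 6 to 8 (difference of shifts). Same-numbered arrays of different groups had deviations correlated at -0.329 to 0.374 (median 0.0364). Arrays of other numbers correlated at -0.443 to 0.357 (median -0.036). Of the 22 arrays, 6 correlated best with their own number. These ranges overlap and cannot tell whether arrays of a number shared a batch. Without centring, the median of all genes moved from -0.48 to -0.21 in sechellia against melanogaster, from 0.03 to -0.17 in the melanogaster hybrid and from -0.02 to -0.43 in the sechellia hybrid. Relative to it, the members' medians lay at -0.90, -0.47 and -0.45, beside -0.91, -0.47 and -0.44 with centring. Treating exact zeros as missing was added after the data were seen. Signal over background was not used here, and missing spots limited 4 genes.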

Other observations

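Among genes that serve the respiratory chain without belonging to it, the shift of the melanogaster hybrid was lower than that of the mauritiana hybrid in 3 of 7 assembly factors, where 17.4 percent of all genes were lower. They were Taz, which remodels cardiolipin (-1.74 ± 0.54, adjusted p = 0.0217, limma), Scox, a copper chaperone of cytochrome oxidase (-1.68 ± 0.48, adjusted p = 0.013), and Cox10, which acts in the synthesis of heme A (-1.58 ± 0.46, adjusted p = 0.014). None of the 3 passed in either hybrid against its own parents. In D. mauritiana testes mAcon2 was higher than in melanogaster (1.79 ± 0.46, adjusted p = 0.0241), the only 1 of 5 genes of the citric acid cycle and pyruvate dehydrogenase to pass, where 2.19 percent of all genes were higher. Against simulans mAcon2 (1.48 ± 0.46, adjusted p = 0.0434) and Idh3b (1.95 ± 0.61, adjusted p = 0.0445) were both higher.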
